A study of Mus musculus with 12 samples.

Results

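This account follows 10 genes of the skeletal muscle voltage-gated calcium channel and its inhibitors in the tibialis anterior, a fast hindlimb muscle. They comprise 5 subunits of the L-type channel (Cacna1s, Cacna2d1, Cacnb1, Cacng1 and Cacng6), the channel adaptor Stac3 and the 4 RGK GTPases (Rrad, Gem, Rem1 and Rem2). The genes were matched by symbol, and all 10 were found among the 24421 entries of the count table; 9 passed the filter on low counts and Rem2 did not. They were proposed with the differences between the groups already known, so their differences are described here and carry no p-value. Muscle RNA was sequenced from 6 male WT mice of the C57Bl/6 strain and from 6 male mdx/mTR mice; both groups were 4 months old. The mdx allele removes dystrophin from muscle, and mTR names the RNA component of mouse telomerase. No group carries only one of these alleles, so their separate contributions cannot be told apart. The labels say nothing of littermates, of the telomerase-deficient generation or of whether each library is a separate animal beyond its number, so the errors below measure the spread between these 12 libraries.

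In skeletal muscle the L-type channel serves mainly as a voltage sensor. Its pore subunit, the product of Cacna1s, sits in the transverse tubule and triggers calcium release through the ryanodine receptor of the adjoining sarcoplasmic reticulum. The beta subunit carries the pore subunit to the membrane and sets its gating, the alpha-2-delta and gamma subunits modulate the current, and Stac3 is needed for the channel to reach and work at the junction. RGK proteins are small Ras-like GTPases that bind the beta subunit and lower the calcium current, partly by reducing the number of channels at the surface. Rrad was named for its link with diabetes in muscle, and Gem for its induction by mitogens.

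The RGK genes are related closely enough for their coding sequences to be compared directly, which also bears on whether reads could be assigned to the wrong gene. The last 36 coding bases of each gene, with the stop codon in capitals, are printed because the family shares a carboxyl-terminal stretch there. They were read on the coding strand from GENCODE M21 transcripts (GRCm38), at chr8:104628451-104628486 on the minus strand for Rrad, and on the plus strand at chr4:11713718-11713753 for Gem, chr2:152634682-152634717 for Rem1 and chr14:54479710-54479745 for Rem2.

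Rrad: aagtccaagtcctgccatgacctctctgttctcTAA

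Gem: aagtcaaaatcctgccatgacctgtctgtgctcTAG

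Rem1: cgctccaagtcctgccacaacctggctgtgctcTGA

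Rem2: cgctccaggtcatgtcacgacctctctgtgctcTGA

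Rrad and Gem matched at 31 of these 36 bases, and Rem1 and Rem2 at 30. Gem and Rem2 were the least alike, with 24 matches. Over the whole aligned coding sequence, identity ran from 59.3% (Gem and Rem2) to 66.6% (Rrad and Gem), and no pair shared any 50-base stretch. None of the 10 genes had a 50-base stretch of its longest coding transcript in a transcript of another gene (0.0%), so reads of that length would not be split between family members.

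Rrad lies at chr8:104628070-104631327 (GRCm38, minus strand), with 5 exons in its longest transcript of 1577 bases. Gem lies at chr4:11704457-11714752 with 5 exons, Rem1 at chr2:152626951-152635198 and Rem2 at chr14:54476100-54480431. Cacna1s lies at chr1:136052750-136119822 with 44 exons, Cacna2d1 at chr5:15934691-16374511 with 39, Cacnb1 at chr11:98001508-98023034, Cacng1 at chr11:107703218-107716522, Cacng6 at chr7:3424195-3435667 and Stac3 at chr10:127501686-127508823. Counts are per whole gene, so they combine all exons and transcripts. Annotated antisense genes cover 141 of the 1577 exonic bases of Rrad, 80 of 4529 of Cacnb1 and 1309 of 6550 of Cacna1s. No strand handling is stated for these counts, so antisense reads there cannot be told apart from the gene's own.

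The WT libraries held 36903560 to 40981012 counts each, and the mdx/mTR libraries 35136327 to 60330410. Levels are in CPM, a library's count divided by its total in units of 1e+06 and by its TMM factor (edgeR's trimmed-mean scaling). A gene at 0 counts could still be present at up to 3 counts, or 0.0460 to 0.0837 CPM depending on the library. Dmd, the dystrophin gene, measured 228 to 244 CPM in the WT mice against 35.2 to 56.4 CPM in the mutants. Terc, the telomerase RNA gene, had 2 counts in all and checks nothing. In edgeR's quasi-likelihood test, 48.3% of the 13937 genes tested passed an adjusted p of 0.05, and 51.6% of those calls were higher in mdx/mTR. With library totals alone that share was 78.2%, and the median change over all genes moved from 0.01 to 0.17 (log2). Changes are given with the TMM scaling unless another is named. Marker genes showed the labelled tissue, with summed fast-fibre markers at 198289 to 222782 CPM in WT and 153261 to 209051 CPM in mdx/mTR. In mdx/mTR, 6 of 6 regenerating-fibre, 7 of 8 macrophage and 6 of 6 fibroblast markers were higher, as were 4 of 6 satellite cell (1 lower) and 2 of 3 neutrophil markers. Lower were 5 of 7 endothelial, 5 of 6 Schwann cell, 3 of 6 smooth muscle and pericyte (1 higher) and 1 of 1 tested cardiomyocyte markers. Of 9 fast-fibre markers, 1 was higher and 1 lower.

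The RGK family differed in make-up between the groups. Per kilobase, Rrad was the scarcest detected member in WT and the most abundant in every mdx/mTR mouse. Gem was moderately higher, Rem1 was at nearly the same level in both groups, and Rem2 was at the limit of detection.

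Rrad measured 0.865 to 1.37 CPM in WT (median 0.986) and 8.94 to 73.2 CPM in mdx/mTR (median 22.4). Every mdx/mTR library lay above every WT library, and the mdx/mTR mice themselves spread widely, with replicate 6 far above the rest and replicates 1 and 3 lowest. The means were 1.05 ± 0.207 CPM and 27.9 ± 24.0 CPM (SD, n = 6 each), a ratio of 26.7 and a log2 fold change of 4.74 ± 0.53 (SE). Without mdx/mTR replicate 6 the mdx/mTR mean was 18.9 ± 10.2 CPM (n = 5), the ratio 18.1 and the log2 fold change 4.17 ± 0.34. The WT values rest on 230 counts over the 6 libraries and the mdx/mTR values on 9277.

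Gem measured 1.70 to 3.21 CPM in WT (median 2.16) and 3.23 to 4.72 CPM in mdx/mTR (median 3.95). The groups did not overlap, but the highest WT value and the lowest mdx/mTR value were nearly equal. The means were 2.35 ± 0.581 and 3.95 ± 0.581 CPM, with a log2 fold change of 0.75 ± 0.16. Rem1, which like its relatives binds the channel's beta subunit, measured 2.98 to 3.55 CPM in WT and 2.68 to 3.96 CPM in mdx/mTR, so that the mdx/mTR range enclosed the WT range. Its log2 fold change was 0.04 ± 0.12, and it was -0.01 without mdx/mTR replicate 4. Rem2, a relative best known from neurons, had 0 counts in WT and 2 in mdx/mTR, in replicates 1 and 2, and was not detectable at this depth.

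**Figure D1:**
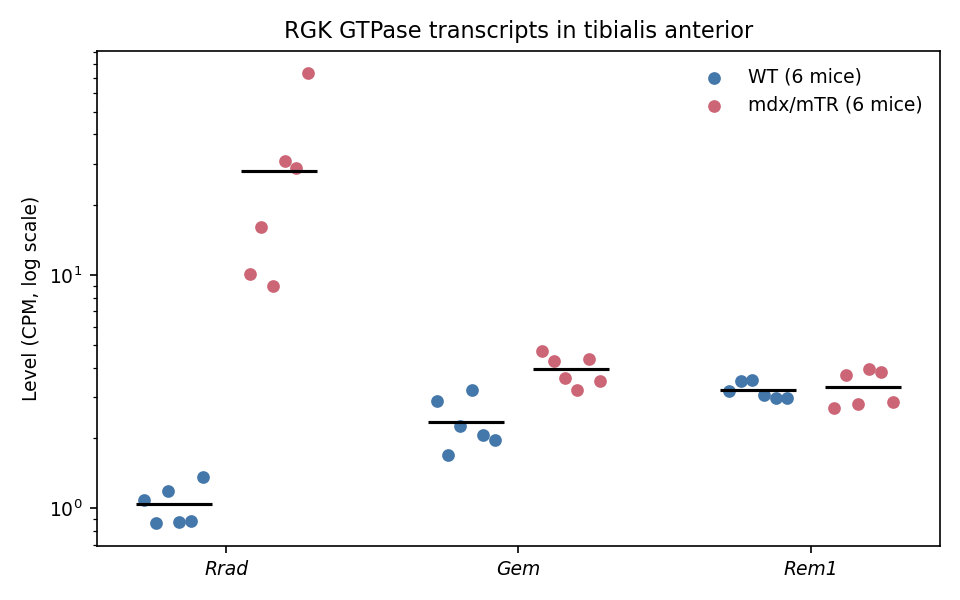
Level of the 3 detected RGK genes in each mouse, in CPM on a log scale; points are mice (6 per group) and horizontal lines are group means. Rrad runs from 8.94 to 73.2 CPM in mdx/mTR against 0.865 to 1.37 CPM in WT, while the Rem1 groups overlap.

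Per kilobase of the longest coding transcript, a scale on which genes can be set side by side, the RGK genes summed to 3.77 ± 0.292 CPM per kb in WT and 21.7 ± 15.0 CPM per kb in mdx/mTR. Rem1 made up 51.5% ± 5.11 of that sum in WT, Gem 30.8% ± 5.89 and Rrad 17.6% ± 3.45. In mdx/mTR Rrad made up 75.0% ± 12.6, Gem 12.8% ± 7.48 and Rem1 12.2% ± 5.40. The Rrad share was 13.9% to 23.8% in WT and 61.8% to 93.1% in mdx/mTR, with no overlap. Cacnb1 encodes the beta subunit that RGK proteins bind, and relative to its level the RGK sum was 6.11% ± 0.495 for WT mice and 37.7% ± 24.5 for mdx/mTR mice. The lowest mdx/mTR library reached 15.5% and the highest WT library 6.68%. These are ratios of transcript levels and say nothing of protein.

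**Figure D2:**
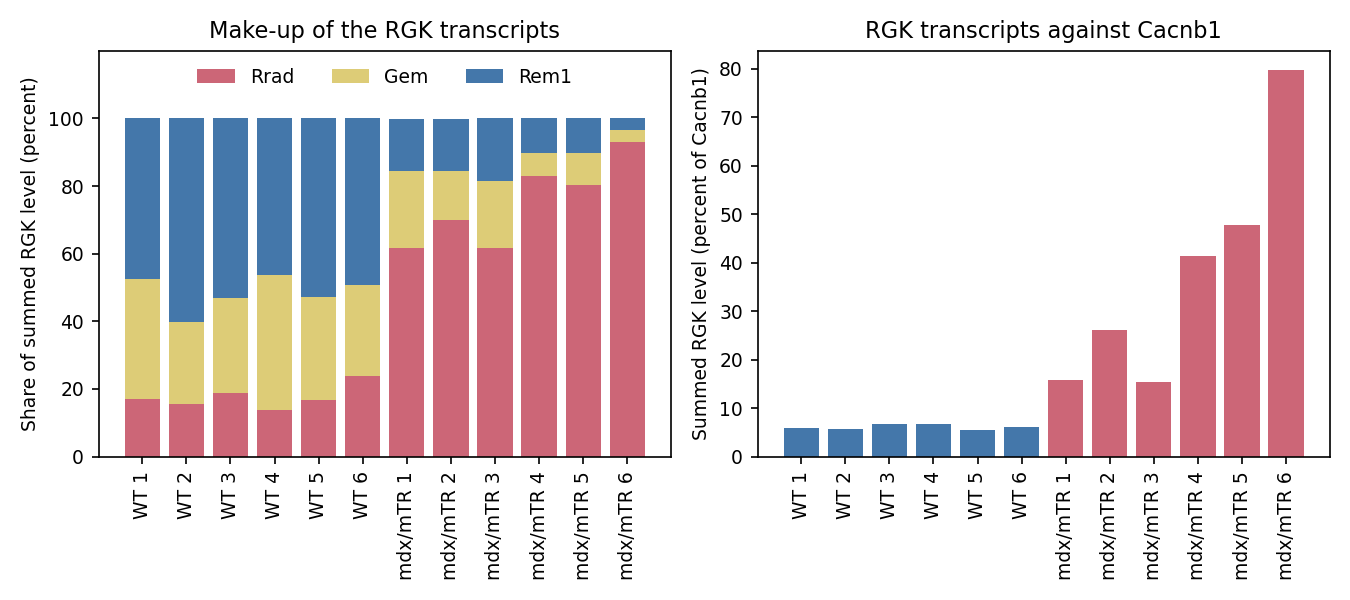
Left, the share of each RGK gene in the summed RGK level per kilobase, in percent, for each of the 12 libraries; right, that sum as a percentage of the Cacnb1 level per kilobase, with WT bars in blue and mdx/mTR bars in red. Rrad takes 61.8% to 93.1% of the sum in mdx/mTR, and the right-hand bars span 5.44% to 6.68% for WT mice and 15.5% to 79.7% for mdx/mTR mice.

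Markers of other cells moved with the groups, and their values in the mdx/mTR libraries are given beside Rrad. Replicate 6, with the highest Rrad level, had the lowest summed satellite cell and myoblast markers of the mdx/mTR libraries (65.4 CPM, where the highest was 135 CPM in replicate 5) and 260 CPM of macrophage markers in a range of 252 to 675 CPM. Its regenerating-fibre markers summed to 762 CPM in a range of 415 to 1389 CPM. Replicate 5 was highest for the satellite cell, regenerating-fibre, macrophage and fibroblast sums and had 28.7 CPM of Rrad. In WT the corresponding sums were 49.9 to 66.1 CPM for satellite cells and myoblasts, 204 to 481 CPM for regenerating fibres and 91.5 to 156 CPM for macrophages. In whole muscle, fewer cells of a type and less RNA per cell cannot be told apart, and the part of these cells in the Rrad level was not tested.

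Among the channel genes the differences were far smaller, within 0.50 on the log2 scale in either direction. Of the 9 genes that passed the filter, 3 were called higher (Rrad, Gem and Cacng1) and 3 lower (Cacna1s, Cacng6 and Stac3), 6 in all, where 48.3% of all tested genes were called, 25.0% higher and 23.4% lower. Values of the groups stayed apart, with no overlap, for 4 of the 9 (Rrad, Gem, Cacng1 and Cacng6), where that was so for 25.2% of all tested genes. The median log2 fold change of the 9 was -0.09, beside 0.01 for all tested genes. The members were chosen from this contrast, so nothing is read from these counts.

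Cacna1s, the pore and voltage sensor, measured 1685 to 1911 CPM in WT (median 1745) and 1186 to 1706 CPM in mdx/mTR (median 1461). The groups overlapped only through mdx/mTR replicate 1, the highest of its group; replicates 2 and 5 were lowest. Its means were 1780.03 ± 99.5 and 1451 ± 220 CPM (81.5% of WT), with a log2 fold change of -0.29 ± 0.09. With library totals alone the change was -0.15 and was no longer called. The same 2 libraries had the lowest summed fast-fibre markers, 163894 CPM in replicate 2 and 153261 CPM in replicate 5, and replicate 1 had the highest of its group at 209051 CPM; their part in the Cacna1s level was not tested.

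Cacna2d1, the extracellular alpha-2-delta subunit, measured 780 to 938 CPM in WT and 642 to 926 CPM in mdx/mTR, with broad overlap (log2 fold change -0.15 ± 0.08). Cacnb1, the beta subunit, measured 201 to 229 CPM in WT and 161 to 224 CPM in mdx/mTR, and all but 1 of the WT libraries lay at or below 211 CPM. Its log2 fold change was -0.09 ± 0.07, and the sign turned to 0.06 with library totals alone, under which that of Cacna2d1 came to -0.001. Neither of these subunits was called.

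The gamma subunits moved apart. Cacng1, the gamma-1 subunit typical of skeletal muscle, which restrains the current, measured 198 to 246 CPM in WT (median 217) and 253 to 296 CPM in mdx/mTR (median 274). All mdx/mTR values lay above all WT values, and the means were 216 ± 17.8 and 273 ± 15.8 CPM (log2 fold change 0.34 ± 0.06). Cacng6, the gamma-6 subunit, measured 70.2 to 80.8 CPM in WT (median 79.9) and 42.1 to 62.3 CPM in mdx/mTR (median 58.6). Here all mdx/mTR values lay below all WT values, and the means were 78.0 ± 4.09 and 55.2 ± 7.56 CPM (log2 fold change -0.50 ± 0.08). Within each library, the ratio of Cacng1 to Cacng6 per kilobase was 4.09 to 4.90 in WT and 7.08 to 9.48 in mdx/mTR, a quantity that does not depend on how libraries were scaled.

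Stac3, the adaptor that holds the channel at the junction, measured 215 to 271 CPM in WT (median 257) and 162 to 230 CPM in mdx/mTR (median 178). The overlap came from mdx/mTR replicates 1 and 6 and WT replicate 2. Its means were 252 ± 21.6 and 189 ± 28.2 CPM (75.1% of WT), with a log2 fold change of -0.41 ± 0.09. Relative to Cacna1s in the same library and per kilobase, Stac3 was at 0.495 ± 0.0458 in WT and 0.457 ± 0.0280 in mdx/mTR, ranges that overlapped. Cacnb1 relative to Cacna1s was at 0.217 ± 0.0112 and 0.251 ± 0.0218, and Cacng1 relative to Cacna1s at 0.610 ± 0.0551 and 0.956 ± 0.111. For both of these ratios all mdx/mTR libraries lay above all WT libraries.

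**Figure D3:**
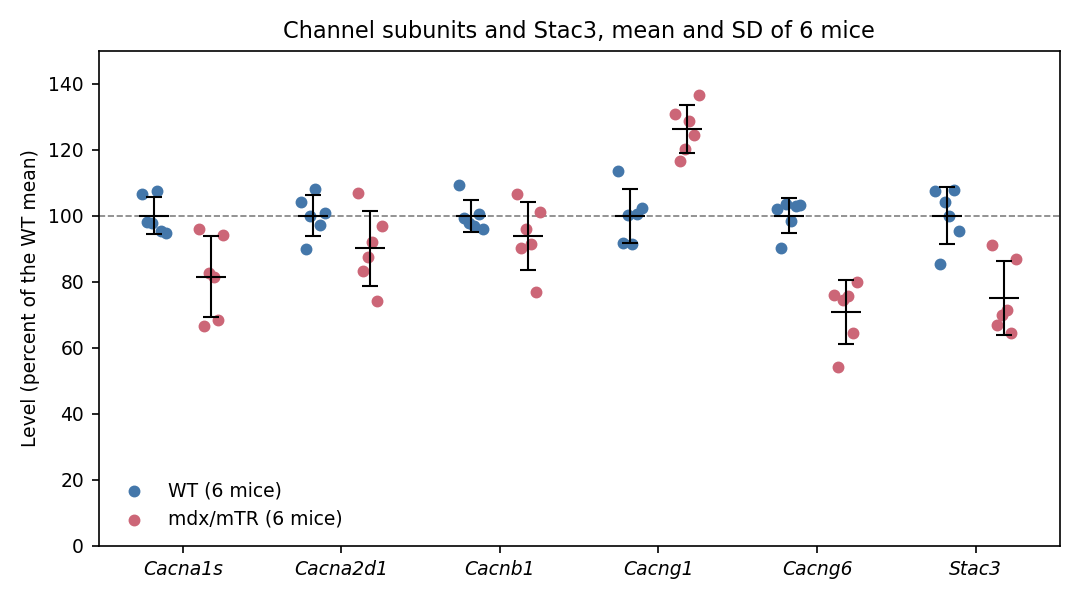
Level of the 5 channel subunits and Stac3 in each mouse as a percentage of the WT mean of that gene; points are mice, and black marks are the mean and SD of 6 mice. Cacng1 lies above and Cacng6 below all WT mice in mdx/mTR, whose means were 126% and 70.8% of WT.

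On the per-kilobase scale the order of levels in WT was Cacna1s (285 CPM per kb), Cacng1 (173), Stac3 (141), Cacna2d1 (117), Cacnb1 (61.8) and Cacng6 (39.4), followed by Rem1 (1.93), Gem (1.17) and Rrad (0.663). The ranges of neighbours in this order overlapped for Stac3 with Cacna2d1 and for Gem with Rrad. In mdx/mTR the order began with Cacna1s (232 CPM per kb) and Cacng1 (219), whose ranges now overlapped, then Stac3 (106), Cacna2d1 (105), Cacnb1 (57.9) and Cacng6 (27.9). Rrad stood next at 17.7 CPM per kb, ahead of Rem1 (1.99) and Gem (1.97). The range of Rrad (5.67 to 46.4 CPM per kb) overlapped that of Cacng6 (21.3 to 31.5). Lengths are those of the longest coding transcript, and which transcripts these muscles use is unknown.

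How the members varied between mice of one group was examined separately, since the contrast between groups does not enter it. Rrad was compared with 8 other members within each group of 6, giving 16 relations of log2(CPM + 0.5). Pearson's r lay between -0.32 and 0.61 among WT mice and between -0.47 and 0.62 among mdx/mTR mice. By a two-sided exact permutation test with Benjamini-Hochberg adjustment 0 of the 16 passed; 0 had an unadjusted p below 0.05 for r and 1 for Spearman's rho (Cacng6 in WT, rho 0.89, exact permutation p 0.0333, adjusted p 0.533). The smallest p this design allows is 0.00278. For Rrad and Gem in mdx/mTR, r was -0.47 (exact permutation p 0.338, adjusted p 0.911) and rho -0.54 (exact permutation p 0.297, adjusted p 0.793). Without mdx/mTR replicates 3 and 6, which leaves few mice, r was -0.71. In WT, r for the same pair was -0.11, and 0.44 without WT replicates 3 and 6.

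The channel genes were then compared with each other. After each gene's group mean was subtracted, the 15 pairs among the 5 subunits and Stac3 had r from 0.42 to 0.86 over the 12 libraries (median 0.68), all positive, and all 15 stayed positive without the 2 libraries farthest from the median. The pairs were tested, after the data had been seen, by shuffling mice within groups (100000 shuffles, two-sided permutation test) with adjustment over all 36 pairs of members. Here rho was the mean of its values within the 2 groups. Of the 15, 2 passed for r and 0 for rho. Cacna1s with Cacna2d1 had r 0.86 (permutation p 0.00245, adjusted p 0.044) and rho 0.69 (permutation p 0.0283). Cacna2d1 with Stac3 had r 0.84 (permutation p 0.00189, adjusted p 0.044) and rho 0.57 (permutation p 0.0788), and r was 0.72 without mdx/mTR replicates 1 and 5. For Cacna1s with Cacna2d1, r was 0.64 within WT and 0.90 within mdx/mTR. Over the 15 pairs, r within WT ran from -0.13 (Cacna1s with Cacng6) to 0.83 (Cacng6 with Stac3). Within mdx/mTR it ran from 0.44 (Cacnb1 with Cacng1) to 0.95 (Cacnb1 with Cacna2d1). The difference between the groups was not tested.

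Rem1 had negative correlations with all 6 of these genes, from -0.68 (Cacna1s) to -0.27 (Cacng1), and none passed (Rem1 with Cacnb1, r -0.67, permutation p 0.0539, adjusted p 0.18). With Cacna1s, r was 0.02 within WT and -0.79 within mdx/mTR, so the 2 groups differed in r, a difference that was not tested. Rem1 was highest in mdx/mTR replicates 2, 4 and 5, the libraries with the lowest summed fast-fibre markers (174814 CPM in replicate 4). Rrad had correlations from -0.17 to 0.43 with the channel genes, and Gem from -0.15 to 0.31. For Gem the groups differed, which was not tested. Its r ran from 0.21 (Cacng1) to 0.91 (Cacna2d1) within WT, with 0.88 for Cacna1s. Within mdx/mTR it ran from -0.46 (Cacng6) to 0.08 (Stac3), with -0.20 for Cacna1s. WT replicates 1 and 4 had the highest Gem levels of WT. Without them, r of Gem over both groups was -0.08 in place of 0.14 for Cacna1s. For Cacna2d1 it was 0.13 in place of 0.31. These 12 libraries share their scaling and the make-up of the muscle, and the part of either in the correlations was not tested.

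**Figure D4:**
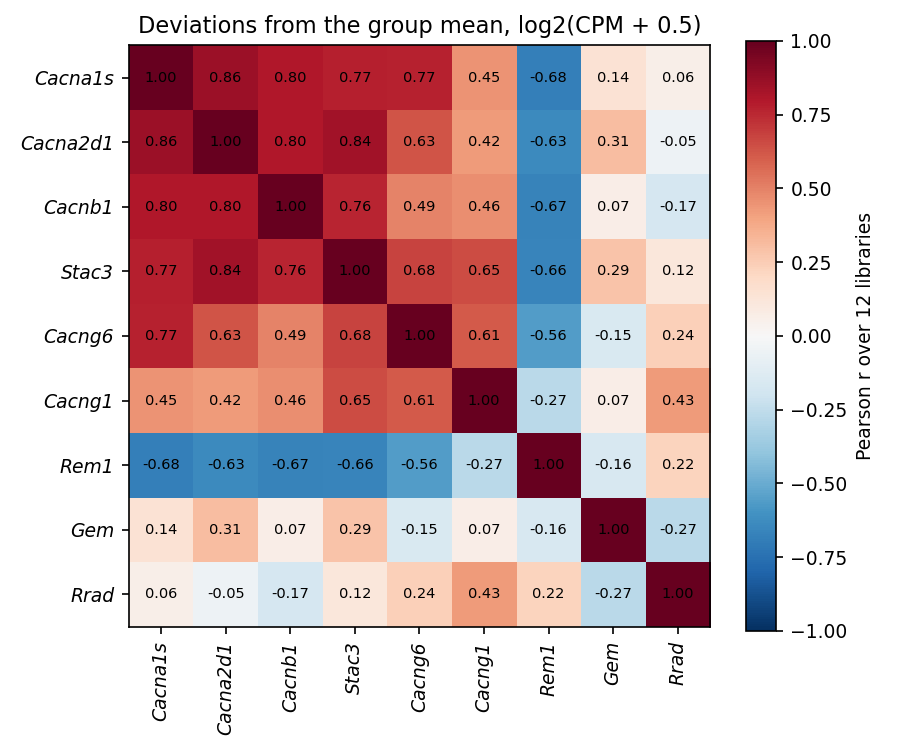
Pearson's r between members over 12 libraries, computed on log2(CPM + 0.5) after subtracting each gene's group mean; colour runs from -1 (blue) to 1 (red). The 5 channel subunits and Stac3 form a block from 0.42 to 0.86, Rem1 is negative against each of them, and Rrad and Gem lie nearer to 0. These values pool both groups, and r within a single group can differ from them.

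The other genes of the pathway were counted from lists and tested with all genes. The lists were chosen with earlier results of these data known, and some genes named below after their values were seen. Their adjusted p-values therefore describe these data and are not independent support. Among other pore subunits of voltage-gated calcium channels, 6 of 9 passed the filter, and 2 were higher and 2 lower in mdx/mTR, beside 48.3% of all genes called. Their median log2 fold change was 0.09. Cacna1d, the pore of a second L-type channel, rose from 0.555 ± 0.201 to 1.11 ± 0.472 CPM (log2 fold change 0.99 ± 0.29, edgeR adjusted p 0.0118), with 2.07 CPM in mdx/mTR replicate 5 and at most 0.982 CPM in the others. The pores of low-voltage-activated channels went both ways. Cacna1i fell from 0.458 ± 0.181 to 0.156 ± 0.107 CPM (-1.62 ± 0.41, edgeR adjusted p 0.00513) and Cacna1h from 7.08 ± 1.004 to 5.65 ± 0.698 CPM (-0.33 ± 0.11, edgeR adjusted p 0.0242), while Cacna1g rose (0.41 ± 0.15, edgeR adjusted p 0.0395), a call lost without any 1 of 7 libraries (WT replicates 1, 3, 5 and 6 and mdx/mTR replicates 1, 2 and 6). Cacna1h lost its call without WT replicate 2 (-0.28) or WT replicate 6 (-0.30) and with library totals alone (-0.17). Without WT replicate 6 the list had 2 calls in place of 4. Cacna1c, the main L-type pore of the heart, measured 8.83 CPM in WT and did not pass (-0.07 ± 0.10, and 0.09 with library totals alone). Compared with Cacna1s, these pores are scarce in both groups.

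A list of 14 other auxiliary genes held channel subunits and the adaptors Stac and Stac2. Of these, 9 passed the filter. In mdx/mTR 2 of them were higher (Cacnb3 and Stac2) and 5 lower, beside 25.0% of all genes called higher and 23.4% lower. The median log2 fold change was -0.59. With library totals alone the split was 3 higher and 4 lower. The largest rise was that of Stac2, a relative of Stac3 that slows inactivation of L-type channels. It measured 0.0833 to 0.371 CPM in WT (3 to 14 counts a library) and 0.765 to 3.81 CPM in mdx/mTR, without overlap (log2 fold change 3.06 ± 0.52, edgeR adjusted p 3.2e-04). mdx/mTR replicate 5 was the highest, and without it the log2 fold change was 2.50 ± 0.35 and the mdx/mTR mean fell from 1.45 to 0.982 CPM. That library was also highest for the regenerating-fibre and macrophage sums and stood apart for neutrophil markers, which summed to 18.03 CPM there and to between 1.78 and 3.49 CPM in the remaining mdx/mTR mice. The part of these cells in the Stac2 level was not tested.

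Cacng7, a further gamma subunit, fell from 11.0 ± 1.26 to 3.39 ± 0.762 CPM (-1.70 ± 0.13, edgeR adjusted p 7.3e-07), with no overlap between groups. Cacna2d2, an alpha-2-delta subunit, fell from 1.55 ± 0.591 to 0.380 ± 0.126 CPM (-2.02 ± 0.28, edgeR adjusted p 6.7e-05), also without overlap. Schwann cell markers summed to 79.5 to 98.1 CPM in the WT mice and 55.6 to 74.3 CPM in the mutants, and their part in the levels of these scarce subunits was not tested. Cacna2d3 and Cacna2d4 fell as well (-0.96 and -0.68), so that all 3 alpha-2-delta genes beside Cacna2d1 were lower. Among beta subunits, Cacnb3 rose (0.64 ± 0.17) and Cacnb2 fell (-0.59 ± 0.17, no longer called with library totals alone), while Cacnb4 did not pass (0.32 ± 0.14).

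Proteins that meet the channel at the triad, the junction of transverse tubule and sarcoplasmic reticulum, showed 2 of 20 genes higher and 7 lower, with a median log2 fold change of -0.02. That share of calls is close to the background of 48.3%. With library totals alone the split was 8 higher and 5 lower. The smallest p-values belonged to the Homer scaffolds and to Speg, a kinase of the junctional membrane. Homer2 fell from 49.8 ± 9.57 to 15.2 ± 4.42 CPM (-1.72 ± 0.17, edgeR adjusted p 4.4e-06), Homer1 from 119 ± 8.23 to 66.6 ± 10.6 CPM (-0.84 ± 0.09, adjusted p 1.3e-05) and Speg from 740 ± 27.6 to 533 ± 48.7 CPM (-0.47 ± 0.06, adjusted p 5.3e-05), each without overlap. Ryr1, the calcium release channel that Cacna1s opens, fell from 7860 to 5492 CPM (-0.52 ± 0.10, edgeR adjusted p 0.0011). Jph1, a junctophilin that ties the membranes together, fell by 0.54, whereas its relative Jph2 did not pass (-0.04 ± 0.09, and 0.11 with library totals alone). Casq1, the calcium store protein, rose by 0.33 ± 0.10 and Cav3, the caveolin of muscle, by 0.31 ± 0.05.

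Partners that bind RGK proteins or act below them gave 5 of 17 genes higher and 5 lower, with a median log2 fold change of 0.10, beside 48.3% called over all genes. With library totals alone the split was 9 higher and 4 lower. Rock2, a kinase of the actin cytoskeleton whose signalling RGK proteins restrain, fell from 216 ± 6.36 to 152 ± 13.3 CPM (-0.51 ± 0.06, edgeR adjusted p 1.2e-05), and its relative Rock1 rose by 0.18 ± 0.05. Calmodulin binds RGK proteins. Of its genes, Calm3 fell by 0.35 ± 0.10 but was not called with library totals alone, and Calm2 did not pass (-0.05 ± 0.06, and 0.11 with library totals alone). For Calm2, 12.7% of the 50-base stretches occur in other annotated genes, so its level is uncertain. Of the 14-3-3 proteins, which hold RGK proteins in the cytosol, Ywhag fell from 407 ± 34.7 to 327 ± 12.3 CPM (-0.31 ± 0.06, edgeR adjusted p 7.3e-04). Ywhaq (0.40), Ywhaz (0.33) and Ywhah (0.22) rose, but 33.8%, 19.9% and 18.6% of their 50-base stretches occur in other annotated genes, so these levels are uncertain. Ywhah was also no longer called without any 1 of 5 libraries (WT replicates 1, 4 and 6 and mdx/mTR replicates 2 and 5). Kif9, a kinesin that binds Gem, rose from 0.189 to 0.470 CPM (1.29 ± 0.30, edgeR adjusted p 0.0029).

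**Figure D5:**
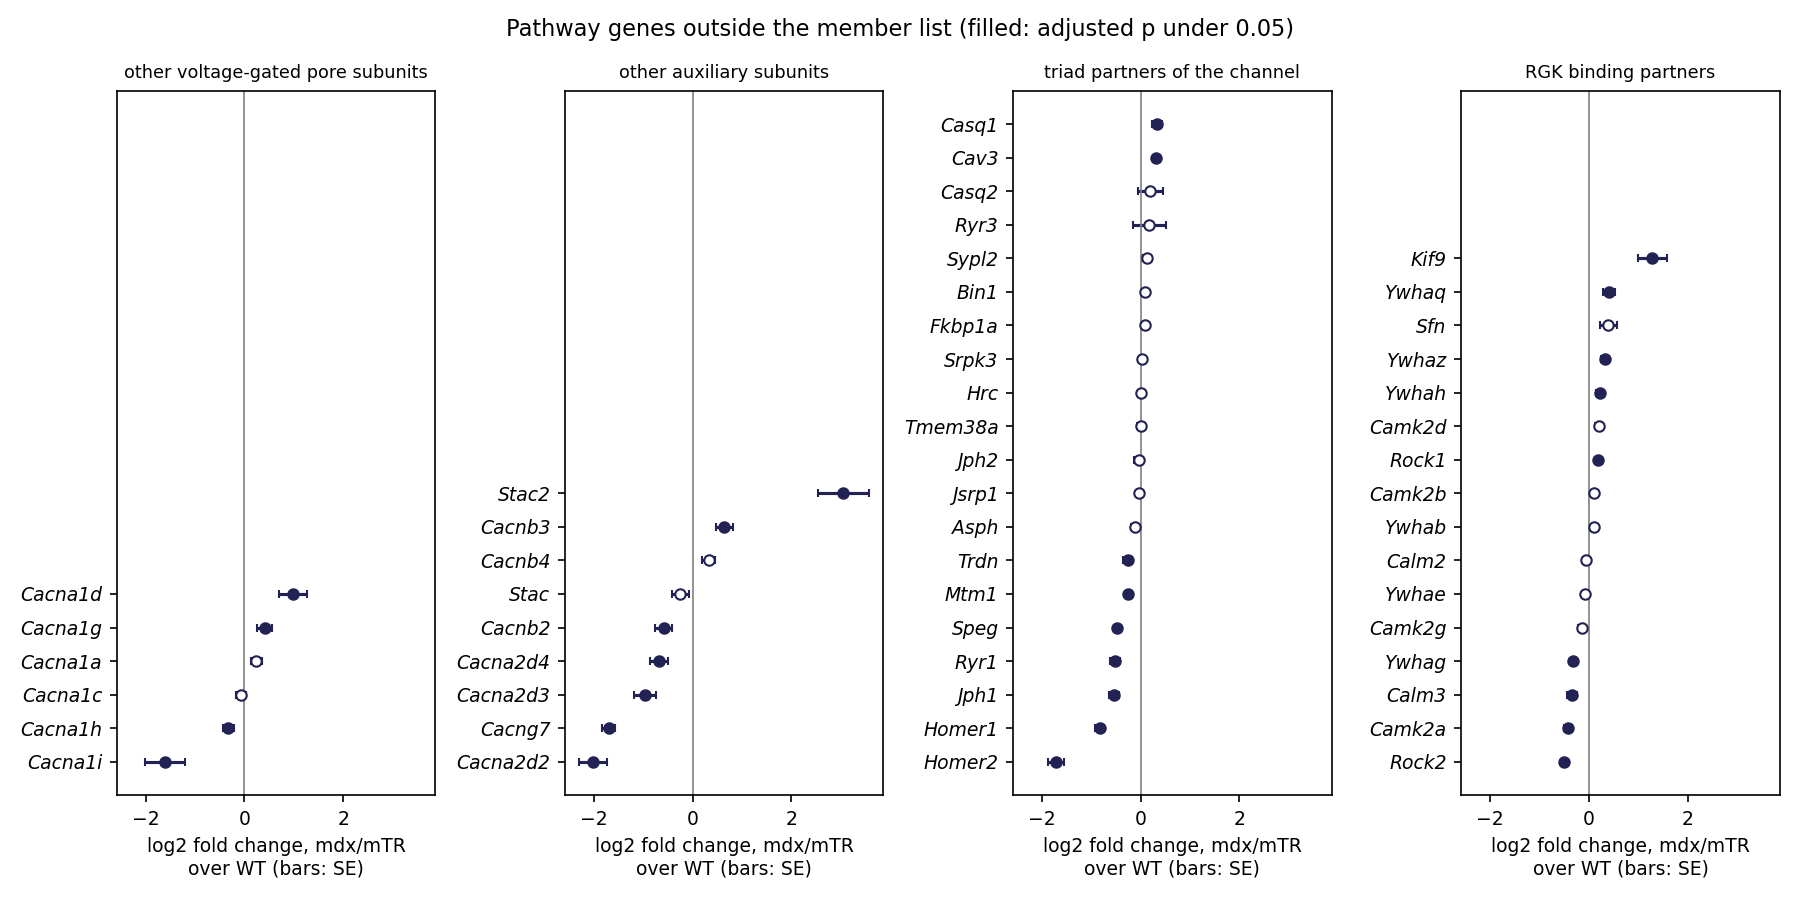
Change between the groups (log2 of mdx/mTR relative to WT, with SE) for tested genes of the 4 other lists (1 RGK partner is not drawn); filled points passed an adjusted p of 0.05 in edgeR. Stac2 (3.06) and Kif9 (1.29) lie farthest to the right, and Cacna2d2 (-2.02), Homer2 (-1.72), Cacng7 (-1.70) and Cacna1i (-1.62) farthest to the left.

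Some of these genes overlap antisense genes in the annotation, which unstranded counting could not separate. Chdh covers 589 of 12621 exonic bases of Cacna1d, and shorter or unnamed genes cover 525 bases of Homer2, 158 of Cacna1h and 82 of Cacna2d2. Antisense genes also cover 1433 of 8963 exonic bases of Cacnb4 and 968 of 13228 of Cacnb2. For Ryr1 they cover 914 of 21838 and for Casq1 156 of 1951.

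The authors' deposited table lists log2 fold changes for the members. In the authors' deposited table the value is 0.71 for Gem, 0.03 for Rem1, -0.30 for Cacna1s, -0.10 for Cacnb1, 0.32 for Cacng1, -0.50 for Cacng6, -0.16 for Cacna2d1 and -0.41 for Stac3, each within 0.05 of the edgeR value. Rrad is the exception in the authors' deposited table, at 3.23 ± 0.34 (the table's SE) beside 4.74 in edgeR. A DESeq2 fit of the same counts, run here, gave 4.74 ± 0.49 for Rrad. The source of the difference from the deposited value was not tested. The authors' deposited table gives Rem2 no adjusted p-value and marks it as low.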

How the data were processed

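The authors deposited whole-number counts per gene symbol, one column per mouse. The authors' own comparison gives, per the file headers, the mean normalized signal, log2 fold change, SE, test score, and raw and adjusted p-values for each gene. FastQC, STAR, DESeq2 and mm10 are named in the submitters' processing notes without role or version; counter, annotation and strand setting are not given in the sources used here. A total of 0 per-sample columns were left unmatched.

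The deposited counts went unchanged into edgeR 4.0.16's quasi-likelihood test (R 4.3.3): filterByExpr (13937 genes, 99.97% of counts), TMM scaling, group as the only term, Benjamini-Hochberg adjustment over all tested genes, threshold 0.05. The SE was taken as the absolute log2 fold change over the root of F. DESeq2 1.42.0 and limma 3.58.1 (voom), other scalings and filters, a replicate block and leaving out each mouse were alternatives. The fits were tested on simulated data. Floors cover counting error only, since the labels name no molecular identifiers. No replicate pair agreed within sampling noise (chi-square per degree of freedom at least 8.87).

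Gene models, lengths and sequences came from GENCODE M21 (GRCm38, the assembly of mm10). Correlations used Python 3.11.15 with numpy 2.4.6. The members and lists were chosen with earlier results of these data known. Named genes are the 10 members, the 3 smallest p-values of each of 4 lists, and for Rrad, Gem and Cacna1s the 5 genes with the most similar deviations; other named list genes were chosen after their values were seen. Cell type markers came from 10 lists. Some genes that these rules name are not reported here.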

Additional observations from a re-analysis of the deposited data

Results flagged for a closer look

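Within each group of 6 mice, the gap between the highest or lowest library and its nearest neighbour was set against that group's whole range, and a library counted as far from the others where this ratio passed Dixon's critical value at the 95% level. Over the members and the named pathway genes 42 groups were examined and 6 exceeded that value. Chance alone gives about 2.1 where values are independent and normally distributed. Genes of one library are not independent, and the ratios were taken on CPM without logs. In each of the 6 the library was the highest of its group, so no excess is read from this count. Among members, Rrad in mdx/mTR replicate 6 stood at 73.2 CPM against 8.94 to 30.6 CPM in the others (ratio 0.662), and Cacnb1 in WT replicate 1 at 229 CPM against 201 to 211 CPM (ratio 0.649). mdx/mTR replicate 5 was highest for Cacna1d (2.07 CPM against 0.858 to 0.982 CPM, ratio 0.897) and Stac2 (3.81 CPM against 0.765 to 1.69 CPM, ratio 0.697). WT replicate 4 was highest for Stac2 (0.371 CPM against 0.0833 to 0.167 CPM, ratio 0.711), and without it the log2 fold change was 3.44 ± 0.55. Homer2 in mdx/mTR replicate 3 stood at 23.8 CPM against 11.5 to 15.3 CPM (ratio 0.693), and without that library its log2 fold change was -1.88 ± 0.12.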

How the results depend on the processing

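Under the 20 alternatives, Rrad (4.17 to 4.92), Gem (0.67 to 0.91), Cacng1 (0.31 to 0.49), Cacng6 (-0.54 to -0.35) and Stac3 (-0.48 to -0.26) kept their direction and call in each, and Cacna1s in 19. The SE of Rrad depended on the method: limma-voom gave 4.39 ± 1.01, beside an SE of 0.53 in edgeR. Rem1 turned to -0.0128 without mdx/mTR replicate 4 and to -0.0034 without replicate 5, ranging up to 0.0989 as single mice were left out, and Cacnb1 turned to 0.0572 with library totals alone. Leaving out 1 mouse gave 6125 to 6816 calls over all genes and 6 to 7 of the members (Cacna2d1 joined them without mdx/mTR replicate 1). In the lists, it gave 2 to 4 of the other pores, 7 to 8 of the other auxiliary genes and 8 to 10 of the triad partners. It also gave 9 to 12 of the RGK partners and 0 of the relations of Rrad. Requiring 1 CPM in 6 libraries left fewer genes tested, and 2 other pores and 4 other auxiliary genes were called. Calls over all genes ran from 6076 to 7156 under the other alternatives. Replicate numbers are shared between the groups, but deviations of same-numbered libraries correlated at -0.155 to 0.354, only 2 of 6 above 0.1, and 4 of 12 libraries correlated best with their own number, so they were not taken as pairs. With a replicate block 6420 genes and 6 members were called. Few counts underlie the WT levels of Rrad (230 over the group), Stac2 (38) and Kif9 (42) and the mdx/mTR level of Cacna1i (45). This limits the precision of their folds, as it does for other scarce genes named here.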

Other observations

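The genes whose mouse-to-mouse variation was most like that of 3 members were listed by Pearson's r of deviations from group means over the 12 libraries, among 12206 genes with a mean of at least 1 CPM. The values are descriptions from a search over many genes and carry no p. For Rrad they included Card14 (r 0.94), Stat3 (0.92), Sbno2 (0.90) and Csf2rb2 (0.86). Without mdx/mTR replicate 6, the library with the highest Rrad level, r was 0.88 for Card14, 0.85 for Stat3, 0.80 for Sbno2 and 0.72 for Csf2rb2. Within WT, r with Rrad was 0.92 for Stat3 but 0.11 for Csf2rb2. Stat3, a signal-dependent transcription factor, had a WT mean of 82.9 CPM and an mdx/mTR mean of 118 CPM.

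For Gem they were Phax (0.95), Atp13a3 (0.94), Smg8 (0.87), Ppil3 (0.85) and Zfp354a (0.84), none of which had a log2 fold change beyond 0.22 in either direction. For Cacna1s they were Ghr (0.99), the growth hormone receptor, Bpgm (0.98), Atp2a1 (0.98), the calcium pump of fast fibres, Zcrb1 (0.96) and Oat (0.95). With Cacna1s, r for Atp2a1 was 0.90 within WT and 0.99 within mdx/mTR. No gene stood in more than 1 of the 3 lists.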
